A study of Mus musculus with 9 samples.

Results

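The genes described here are the liver X receptors Nr1h3 (LXR alpha) and Nr1h2 (LXR beta), the retinoid X receptors Rxra, Rxrb and Rxrg, and 4 nuclear receptor cofactors, Ncor1, Ncoa1, Ncoa2 and Ncoa3. They were taken by symbol, 9 names in all, from a table of 28965 gene symbols. Of these, 8 were found and all 8 had a mean value of at least 10, the minimum for testing, whereas Rxrg was not analysed here. Of the cofactors only Ncor1 is a corepressor; Ncoa1, Ncoa2 and Ncoa3 are coactivators.

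The RNA came from wild-type 3T3-L1 cells, a mouse line of fibroblast-like adipocyte precursors, which were held at confluence and then induced for 24 h. Every library came from cells given insulin at 0.1 µg/mL, isobutylmethylxanthine at 30 µg/mL and dexamethasone at 0.1 µg/mL. The OA_T0 group also received 100 µM oleic acid on albumin with 5 µM T0901317, a synthetic LXR agonist, the OA group 100 µM oleic acid on albumin, and the MDI group the albumin vehicle, with 3 libraries each. Among the libraries analysed here none had T0901317 without oleic acid, none came from uninduced cells, and all came from 1 cell line. The labels do not say whether libraries of a group came from separate cultures, so p-values measure the spread between these libraries, which may be technical.

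LXRs are nuclear receptors activated by oxysterols. They bind DNA as heterodimers with an RXR, and in the textbook view they hold corepressors such as NCOR1 until a ligand exchanges these for coactivators of the SRC family, which Ncoa1, Ncoa2 and Ncoa3 encode. In fat cells LXR targets act in sterol export and lipid synthesis, and RXRs also partner PPAR gamma, the main regulator of adipogenesis.

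The sites of such heterodimers are repeats of the hexamer AGGTCA, for LXR with RXR commonly a DR4, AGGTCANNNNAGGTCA, and for PPAR with RXR a DR1, AGGTCANAGGTCA. The RefSeq table of promoter windows (GRCm38.p6, 250 bases before to 50 after each annotated start) was searched on both strands for these letters. Of 32851 windows, 16.3% held the hexamer, 0.0396% the DR1 and 0.0152% the DR4, and a hexamer counts again within either repeat. A looser pattern, TGACCNNNNNTAACC, was chosen because it takes in the known LXR element of the Abca1 promoter, and 0.0487% of windows held it. The upstream stretches shown are those of Nr1h3 and Rxra, the members whose OA and MDI libraries did not overlap, and that of the LXR target Abca1 for its element. Capitals mark the matches, and annotated exons were left out.
Nr1h3, chr2:91195152-91195366, minus strand: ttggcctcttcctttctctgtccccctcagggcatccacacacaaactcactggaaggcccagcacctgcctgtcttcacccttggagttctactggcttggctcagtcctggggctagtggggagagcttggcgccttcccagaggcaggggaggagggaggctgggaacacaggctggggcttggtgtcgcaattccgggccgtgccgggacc
Rxra, downstream start, chr2:27709042-27709291, plus strand: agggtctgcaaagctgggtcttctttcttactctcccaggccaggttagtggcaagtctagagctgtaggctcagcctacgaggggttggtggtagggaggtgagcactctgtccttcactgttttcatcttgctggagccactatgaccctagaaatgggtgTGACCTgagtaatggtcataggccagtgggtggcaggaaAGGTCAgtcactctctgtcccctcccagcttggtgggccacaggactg
Abca1, chr4:53159896-53160145, minus strand: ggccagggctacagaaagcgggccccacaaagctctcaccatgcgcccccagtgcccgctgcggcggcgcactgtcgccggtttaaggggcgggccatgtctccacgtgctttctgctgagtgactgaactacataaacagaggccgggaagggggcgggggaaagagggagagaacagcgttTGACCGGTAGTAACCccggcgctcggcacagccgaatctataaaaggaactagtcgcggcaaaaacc
The Abca1 element began 67 bases before the annotated start. The Rxra stretch held the hexamer at both capitals, on the minus strand 87 bases and on the plus strand 48 bases before its start, but no DR4 or DR1. Nr1h3 held none of these letters in either of its windows, and neither did the windows of Nr1h2, Rxrb, Ncor1 and Ncoa1 or the upstream start of Rxra; Ncoa2 and Ncoa3 were not in the table. A match is a description of letters and not a bound site. The expression data were processed on mm9 per the submitters' notes, so these positions are those of the sequence table only.

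The values were the authors' normalised counts. Estimated depth was 18.0 to 29.4 M fragments in OA_T0, 21.4 to 29.3 M in OA and 25.6 to 59.9 M in MDI. The ribosomal RNA gene CT010467.1 took 3.06% of the values in OA_T0 replicate 3 and 0.649% in OA replicate 1, against 4.40% to 5.96% in the other 7 libraries, and OA_T0 replicate 3 was also the shallowest. All 8 listed preadipocyte and fibroblast markers averaged at least 10. So did 5 of 8 adipocyte markers, while Adipoq, Plin1 and Cidec averaged below 10. Summed adipocyte markers ran from 10604 to 11436 in OA_T0, from 12587 to 13697 in OA and from 6898 to 7555 in MDI, and summed preadipocyte markers from 116258 to 139201 in OA_T0, from 128134 to 142580 in OA and from 114657 to 131050 in MDI. The adipocyte sum was mostly Lpl, which averaged 8651 in OA_T0, 9358 in OA and 5424 in MDI. In the same order, Fabp4 averaged 661, 2024 and 374, Cd36 27.7, 321 and 20.3, Cebpa 429, 455 and 383, and Pparg 1185, 964 and 945. The sum thus does not stand for each marker. The part of these differences in the results below was not tested. In such bulk RNA, fewer cells of a type and less RNA per cell cannot be told apart. Of the 12 markers of endothelial, immune and epithelial cells, 10 were found and 8 of these averaged below 10. Summed immune markers, among them Adgre1 at 0 in every library, ran from 49.7 to 72.4 in OA_T0, from 24.2 to 46.2 in OA and from 27.5 to 37.2 in MDI, highest in the OA_T0 libraries. The muscle gene Des ran from 52.3 to 60.0 in OA_T0, from 75.3 to 92.8 in OA and from 50.4 to 65.3 in MDI, highest in the OA libraries, while Myog was at 0. Their part in the results was not tested either.

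Compared per length of exon, the members fell over a wide range of levels. Rxra was highest at 940.3 normalised counts per kb as a mean of 9 libraries, and Nr1h3 was lowest at 20.4. Between them came Ncor1 at 529, Rxrb at 315, Nr1h2 at 248, Ncoa3 at 119, Ncoa2 at 100.1 and Ncoa1 at 66.3 normalised counts per kb. The ranges over the 9 libraries of neighbours in this order were separate except for Ncoa3 (104.6 to 136.7) and Ncoa2 (89.4 to 107.8), and with the longest transcript in place of the union of exons Ncoa2 (171 to 206) stood above Ncoa3 (109.7 to 143), and Rxrb (434 to 531) overlapped Nr1h2 (381 to 453).

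**Figure D1:**
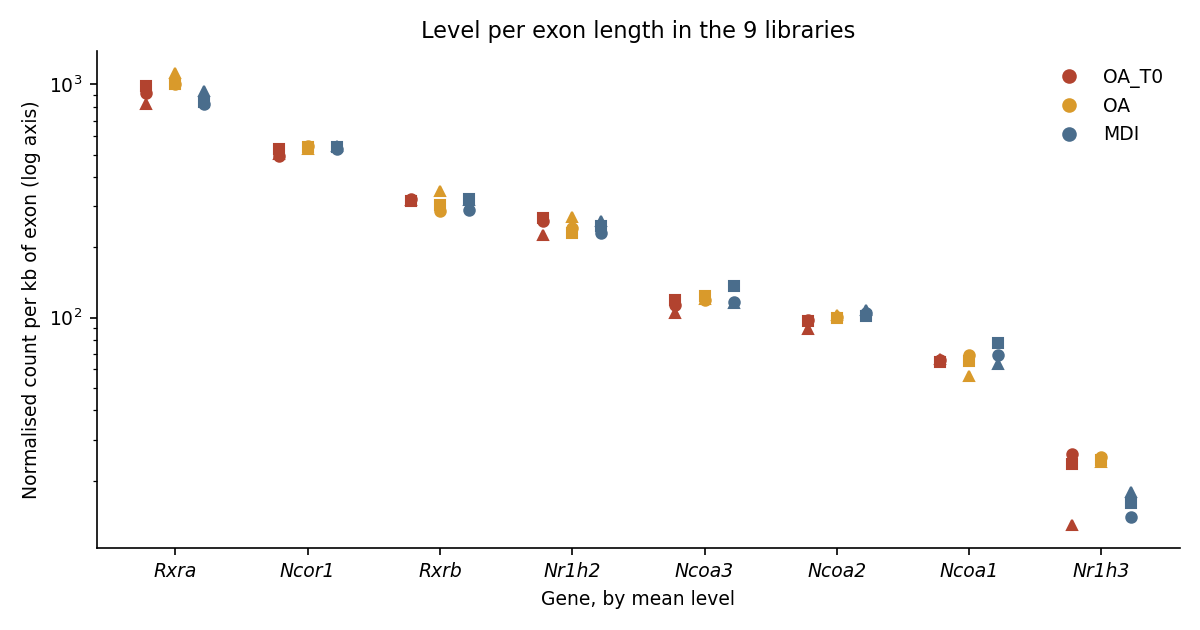
Normalised counts per kb of exon (log axis) for the 8 genes in order of their mean; each point is a library, coloured by group, with OA_T0, OA and MDI from left to right. Rxra lies highest at 822 to 1116, Nr1h3 lowest at 12.9 to 25.9, and the points of Ncoa3 and Ncoa2 overlap.

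LXR alpha transcripts, from Nr1h3, were higher in every OA library than in every MDI library but did not pass the test. Nr1h3 stood at 65.2, 59.3 and 32.4 normalised counts in OA_T0 replicates 1 to 3, at 63.8, 61.7 and 60.2 in OA, and at 35.1, 40.3 and 45.1 in MDI. The OA libraries lay close together, and OA_T0 was split, its replicates 1 and 2 near OA and its replicate 3 below all MDI libraries. Nr1h3 averaged 61.9 ± 1.78 in OA and 40.1 ± 4.98 in MDI (SD, n = 3 each), a ratio of 1.54. The log2 fold change, computed on log2(value + 1) here and throughout, was 0.62 (SE 0.25, 95% interval 0.08 to 1.16) with adjusted p = 0.165 in limma (Benjamini-Hochberg over 15002 genes). Each library is named below by its group and replicate number, as in OA_T0_3. The spread is shared by the 3 groups, and without OA_T0_3 the same comparison had adjusted p = 0.0656.

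Against OA, OA_T0 had a Nr1h3 log2 fold change of -0.30 (SE 0.25, limma adjusted p = 0.457). That value was 0.01 without OA_T0_3 (adjusted p = 0.987). Against MDI it was 0.32 (adjusted p = 0.524), and 0.63 without OA_T0_3 (adjusted p = 0.152). The direction against OA thus rested on 1 library. The size against MDI moved with each OA_T0 library, being 0.13 without OA_T0_1 (adjusted p = 0.873) and 0.20 without OA_T0_2 (0.7499). The intervals with all libraries, -0.84 to 0.24 against OA and -0.22 to 0.85 against MDI, leave room for change in either direction.

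Nr1h3 values were low enough to be read as whole fragments. They came to 63, 59 and 21 fragments in OA_T0, 57, 46 and 60 in OA, and 78, 37 and 40 in MDI, within 0.01 of a fragment. The exact 95% Poisson interval of OA_T0_3, which covers counting error only, ran from 20.0 to 49.5 normalised counts. It lay below that of OA_T0_1 (50.1 to 83.4) and overlapped that of OA_T0_2 (45.2 to 76.5). In MDI_1, the deepest library, the interval was 27.7 to 43.8. Being lowest in OA_T0_3 within the group was not particular to Nr1h3: 5 of the 8 members were lowest there, as were 43.9% of tested genes. The size of the drop was larger for Nr1h3, at 32.4 there against 65.2 and 59.3 in OA_T0_1 and OA_T0_2. In the same order, Nr1h2 was at 761 against 872 and 898, and Rxra at 4489.7 against 5031 and 5361. Ncoa2 was at 1399 against 1534 and 1508, and Ncoa3 at 826 against 893 and 943.

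**Figure D2:**
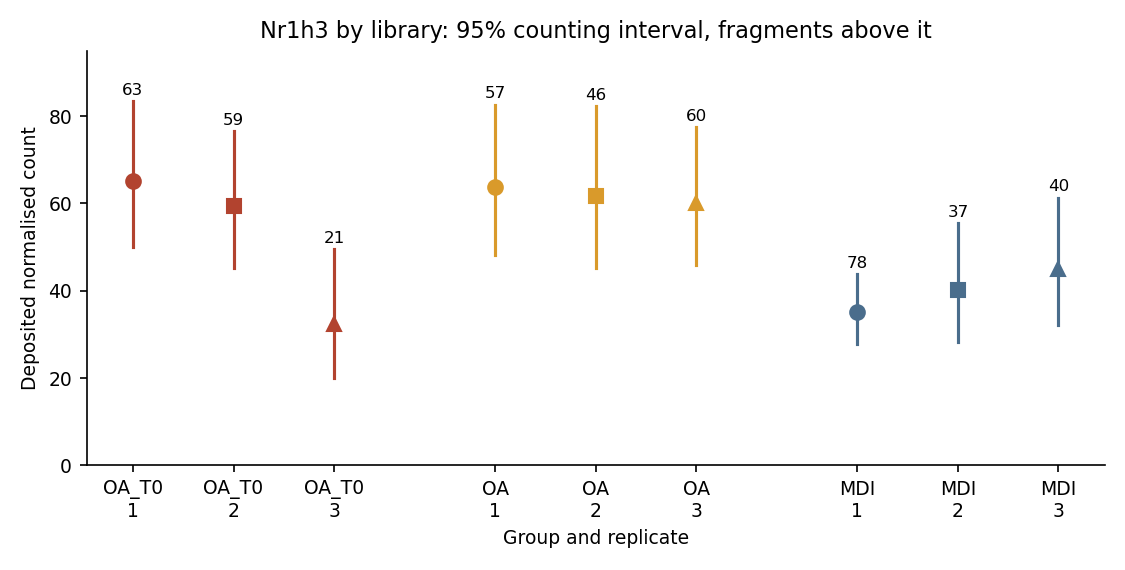
Nr1h3 in each library as the deposited normalised count (point) with its exact 95% Poisson interval (bar) and the number of fragments above it. OA values sit at 60.2 to 63.8, MDI values at 35.1 to 45.1, and OA_T0_3, with 21 fragments, at 32.4.

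LXR beta transcripts, from Nr1h2, showed no call in any comparison. Nr1h2 measured 872, 898 and 761 normalised counts in OA_T0, 809.8, 771 and 906 in OA, and 774, 829 and 871 in MDI, and the groups overlapped throughout. Its log2 fold change was 0.01 in OA against MDI (95% interval -0.17 to 0.19) and 0.02 in OA_T0 against OA (-0.16 to 0.21). Fold changes above 1.14 in OA against MDI and above 1.15 in OA_T0 against OA thus lay outside the interval. Per kb of exon, Nr1h3 made up 9.06%, 8.10% and 5.37% of the summed LXR level in OA_T0, 9.50%, 9.64% and 8.14% in OA, and 5.70%, 6.08% and 6.46% in MDI. With the longest transcript in place of the union of exons, the Nr1h3 share ran from 4.1% in OA_T0_3 to 7.5% in OA_2. By either length, Nr1h2 was thus the main LXR transcript in each of the 9 libraries.

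RXR alpha was the 1 member to pass the test. Rxra measured 5031, 5361 and 4489.7 normalised counts in OA_T0, 5511, 5486 and 6096 in OA, and 4525, 4586 and 5139.8 in MDI. All OA libraries were above all of the others. Rxra averaged 5698 ± 345 in OA and 4750.1 ± 339 in MDI (SD, n = 3 each) and was higher in OA, with a log2 fold change of 0.26 (SE 0.07, 95% interval 0.11 to 0.42, limma adjusted p = 0.0428), which is a ratio of 1.20. The call was a narrow one: it was lost without MDI_1 (adjusted p = 0.158), MDI_2 (0.181), OA_1 (0.0846), OA_2 (0.0632), OA_3 (0.143) or OA_T0_1 (0.0691), or with no filter on low values (0.146), and the log2 fold change stayed between 0.21 and 0.32 under all 19 alternatives.

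In OA_T0 against OA, Rxra averaged 4960.6 ± 440 and 5698 ± 345 with no overlap between the groups (SD, n = 3 each). The log2 fold change was -0.20 (SE 0.07, 95% interval -0.36 to -0.05), with limma adjusted p = 0.0774. It passed without OA_T0_2 (adjusted p = 0.0313) and with libraries scaled to equal totals (0.0233), while without OA_T0_3 the log2 fold change was -0.13 (adjusted p = 0.267). In OA_T0 against MDI the log2 fold change was 0.06 (adjusted p = 0.694). The comparisons share the OA libraries, so these values are not independent of one another.

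RXR beta, from Rxrb, measured 1283, 1258 and 1269.6 normalised counts in OA_T0, 1139.7, 1210.2 and 1394 in OA, and 1155, 1276 and 1273 in MDI. The groups overlapped, and the log2 fold changes were 0.01 to 0.04 (limma adjusted p of at least 0.805). Per kb of exon, Rxra made up 74.0%, 75.6% and 72.0% of the summed Rxra and Rxrb level in OA_T0, 77.9%, 76.7% and 76.1% in OA, and 74.0%, 72.3% and 74.6% in MDI. The summed RXR level was 4.35, 4.46 and 4.76 times the summed LXR level in OA_T0, 4.86, 5.14 and 4.99 times in OA, and 4.57, 4.41 and 4.54 times in MDI. Both measures were higher in each OA library than in any other library, and no test was run on them. With the longest transcript in place of the union of exons, the RXR level was 3.23, 3.28 and 3.52 times the LXR level in OA_T0. It was then 3.56, 3.79 and 3.67 times in OA, and 3.36, 3.27 and 3.34 times in MDI.

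**Figure D3:**
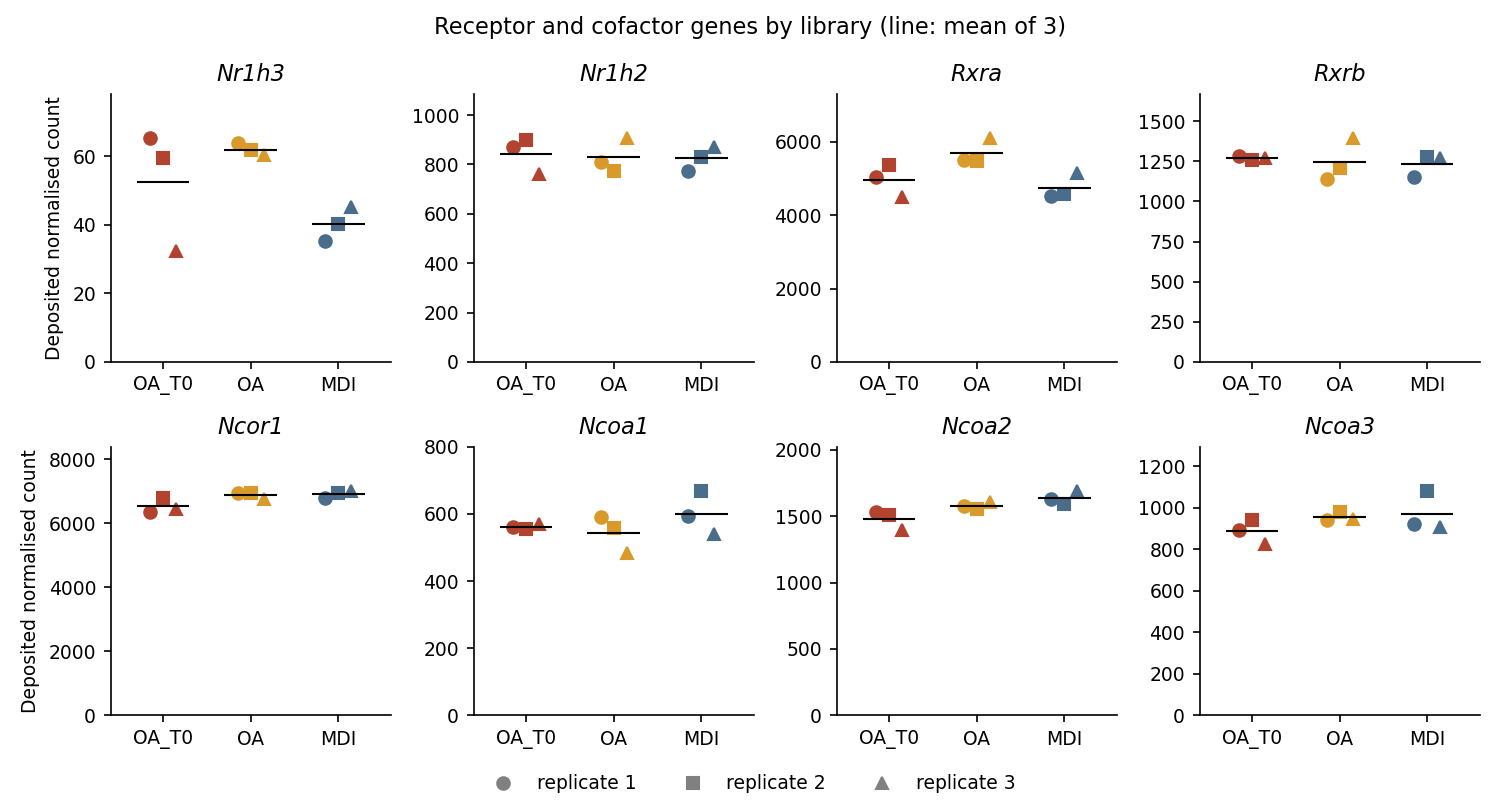
Deposited normalised counts of the 8 genes in the 9 libraries, with OA_T0, OA and MDI from left to right; marker shapes are replicates and lines are means of 3. OA and MDI points are separate for Nr1h3 and Rxra, and for the other genes they overlap.

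The corepressor Ncor1, which recruits the histone deacetylase HDAC3, measured 6347, 6803 and 6460.4 normalised counts in OA_T0, 6946, 6941 and 6761 in OA, and 6793, 6934 and 6994 in MDI. OA_T0_1 and OA_T0_3 lay below all other libraries, and no comparison passed. The log2 fold change was -0.01 in OA against MDI (95% interval -0.12 to 0.10), -0.07 in OA_T0 against OA (-0.18 to 0.04) and -0.08 in OA_T0 against MDI (-0.19 to 0.03), the narrowest intervals among the members.

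The coactivators of the SRC family, which bind liganded receptors and carry histone acetyltransferases to them, did not pass either. Ncoa2 measured 1534, 1508 and 1399 normalised counts in OA_T0, 1575, 1551 and 1606 in OA, and 1632, 1594 and 1687 in MDI. All OA_T0 libraries were below all OA and all MDI libraries. The log2 fold change of Ncoa2 was -0.09 in OA_T0 against OA (SE 0.06, limma adjusted p = 0.323) and -0.15 in OA_T0 against MDI (SE 0.06, adjusted p = 0.207).

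Ncoa1 measured 562, 554 and 569 normalised counts in OA_T0, 592, 558 and 484 in OA, and 595, 667 and 541 in MDI. Ncoa3 measured 893, 943 and 826 in OA_T0, 943, 979 and 946 in OA, and 922, 1079 and 909.65 in MDI. The groups of Ncoa1 overlapped in all comparisons, as did those of Ncoa3, and the adjusted p of both was at least 0.377. Their log2 fold changes ran from -0.14 to 0.05. The summed level of the 3 coactivators per kb, as a log2 ratio to Ncor1, was -0.84, -0.92 and -0.95 in OA_T0, -0.91, -0.91 and -0.92 in OA, and -0.87, -0.77 and -0.93 in MDI, with overlap between all groups.

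**Figure D4:**
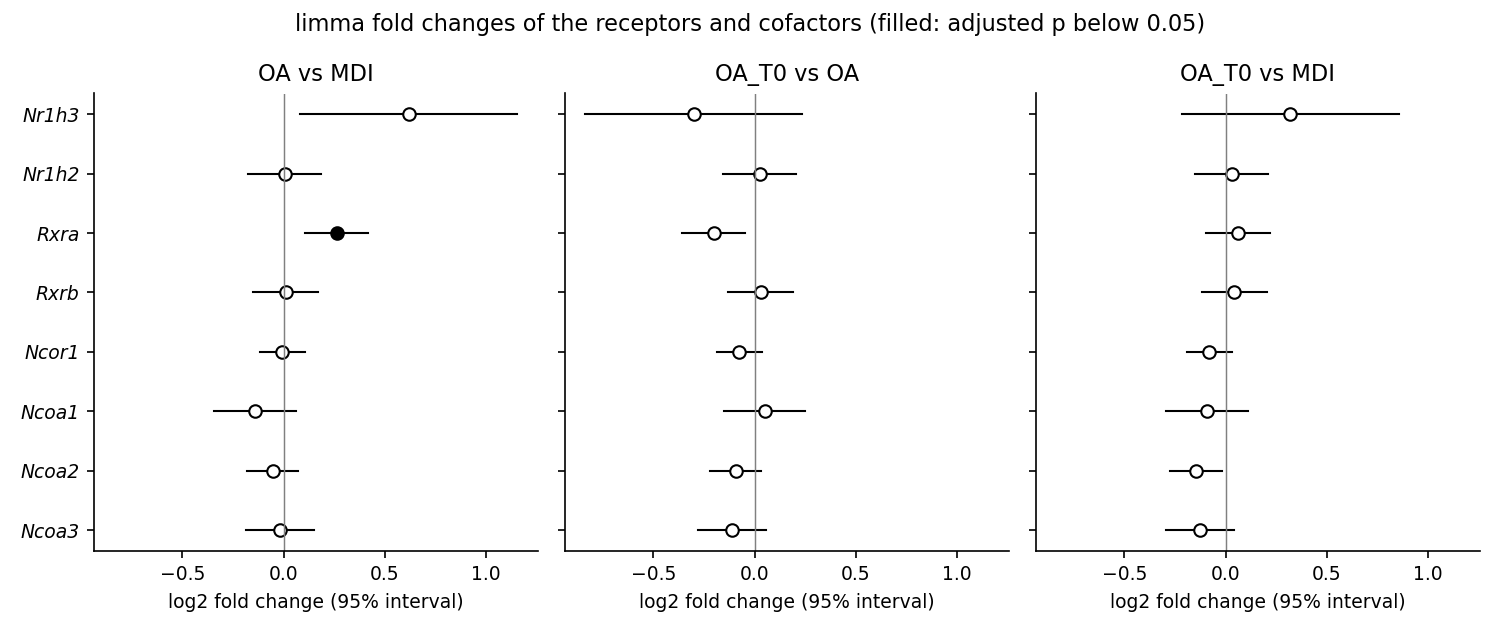
Log2 fold changes (points) with 95% intervals (bars) of the 8 genes in the 3 comparisons, from limma; filled points passed at an adjusted p below 0.05. Rxra in OA vs MDI, at 0.26, is the filled point, and Nr1h3 has the widest intervals.

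Of the 8 members, 1 was called higher and 0 lower in OA against MDI, where 3.43% of 15002 tested genes were higher and 3.36% lower. Set against OA, OA_T0 had 0 members called, where 8.27% of tested genes were higher and 6.84% lower. In OA_T0 against MDI 0 were called, with 1.25% of tested genes higher and 1.36% lower. An unadjusted p under 0.05 in limma was reached by 2 members in OA against MDI, beside 21.2% of tested genes, by 1 in OA_T0 against OA, beside 29.9%, and by 1 in OA_T0 against MDI, beside 18.5%. Groups did not overlap for 2 of 8 members in OA against MDI, beside 26.1% of tested genes, for 2 in OA_T0 against OA, beside 32.1%, and for 1 in OA_T0 against MDI, beside 23.5%. None of the 3 counts of members whose groups did not overlap exceeded the share of all tested genes. The median log2 fold change of the members was 0.00 in OA against MDI, -0.08 in OA_T0 against OA and -0.02 in OA_T0 against MDI, and that of all tested genes was 0.01, -0.00 and 0.02 in the same order.

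The genes nearest to these profiles were found by the root mean square (RMS) difference of log2 values over the 9 libraries, each gene centred on its own mean. For Rxra, whose own RMS deviation was 0.14, they were Arpc1a and Cd248 (0.03 each) and Nicn1 (0.03). Cd248, the stromal surface protein endosialin, averaged 5604 normalised counts in OA_T0, 6519 in OA and 5439 in MDI. For Nr1h2, with an RMS deviation of 0.09, they were Vcp, Wsb2 and Tnk2 (0.03 each). For Nr1h3, with an RMS deviation of 0.37, the nearest were Foxd2 (0.16), Ggn (0.17) and Fndc10 (0.17). Nr1h3 rests on 21 to 78 fragments a library, where counting error is larger, so its distances cannot be set against those of Rxra. These are descriptions of 9 libraries, picked from the same values.

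Other genes of the receptor pathway were read from lists chosen with earlier results of these data known. Of 14 receptors that partner RXR, 10 were tested, and their median log2 fold change was 0.01 in OA against MDI, 0.08 in OA_T0 against OA and 0.08 in OA_T0 against MDI. In OA against MDI 0 were higher and 1 lower. It was Nr4a1, an orphan receptor and early response gene, at 1325 ± 152 in OA and 1839 ± 321 in MDI (log2 fold change -0.47, limma adjusted p = 0.0213). That call was lost without MDI_1 (adjusted p = 0.0994), OA_2 (0.0799) or OA_3 (0.0685), and with robust variance (0.0548).

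Set against OA, OA_T0 had 2 partner receptors higher and 0 lower. Nr4a1 averaged 2397 ± 264 in OA_T0 and 1325 ± 152 in OA (log2 fold change 0.86, limma adjusted p = 1.23e-04). Pparg averaged 1185 ± 37.7 in OA_T0 and 964 ± 44.4 in OA (log2 fold change 0.30, adjusted p = 0.00558), and the call was lost without OA_1 and OA_T0_3 together (0.0912). In OA_T0 against MDI 1 was higher and 0 lower, Pparg, by 0.33 (adjusted p = 0.0127), which did not pass without MDI_1 (0.0526), MDI_2 (0.0717) or OA_T0_1 (0.103). The number of higher partner receptors in that comparison was 0 without MDI_2 or OA_T0_1 and 2 without MDI_3 or OA_3.

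Of 12 further corepressor genes, among them Hdac3, Tbl1x and Gps2, all 12 were tested, and 0 were called in OA against MDI. In both OA_T0 against OA and OA_T0 against MDI 0 were higher and 1 lower, Nrip1, which encodes the corepressor RIP140. Nrip1 measured 1045.0, 1046 and 995 normalised counts in OA_T0, 1318, 1315 and 1177 in OA, and 1286, 1274 and 1259.6 in MDI. Every OA_T0 library was below every other library. The log2 fold change was -0.30 in OA_T0 against OA (SE 0.06, limma adjusted p = 0.00539), and -0.31 in OA_T0 against MDI (adjusted p = 0.0184). Without OA_1 and OA_T0_3 together the first had adjusted p = 0.102 and the second 0.0728, and the second also did not pass without MDI_1 (0.0857), MDI_2 (0.0854) or OA_T0_1 (0.0934). The median log2 fold change of these genes was -0.01 in OA against MDI, 0.04 in OA_T0 against OA and -0.06 in OA_T0 against MDI.

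Of 20 coactivators outside the SRC family, all 20 were tested, and 0 were called in OA against MDI and in OA_T0 against MDI. The count in OA_T0 against OA was 3 higher and 0 lower. Ppargc1b, a coactivator of mitochondrial genes, measured 34.1, 23.1 and 20.0 in OA_T0 and 10.1, 10.7 and 7.02 in OA (log2 fold change 1.37, limma adjusted p = 0.0172), at low values, and the call was lost without OA_T0_1 (0.103). The arginine methyltransferase Prmt1 rose by 0.22 (adjusted p = 0.0349) and the acetyltransferase Kat2a by 0.18 (0.0456). Kat2a passed in only 7 of the 19 alternatives and Prmt1 in 12. The count fell to 1 without MDI_2, OA_1, OA_2 or OA_T0_3 and to 0 without OA_T0_1, and without OA_T0_2 it was joined by 2 genes lower and without OA_3 by 1 gene lower. The median log2 fold change of these genes was -0.05 in OA against MDI, -0.06 in OA_T0 against OA and -0.07 in OA_T0 against MDI.

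Genes of retinoid and oxysterol handling had calls in every comparison, as did the RXR partner receptors and the LXR targets. Their list too was chosen with earlier results known, so its counts are descriptions. Of 16 genes for retinoid and oxysterol enzymes and carriers, 9 were tested. In OA against MDI 4 rose and 0 fell, beside 3.43% of all tested genes higher and 3.36% lower. In OA_T0 against OA 1 rose and 5 fell, beside 8.27% higher and 6.84% lower. In OA_T0 against MDI 1 rose and 1 fell, beside 1.25% higher and 1.36% lower. Their median log2 fold change was 0.23 in OA against MDI, -0.30 in OA_T0 against OA and 0.05 in OA_T0 against MDI.

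Cyp26b1, which breaks down retinoic acid, measured 162, 183 and 145 normalised counts in OA_T0, 457, 404 and 416 in OA, and 159, 136 and 167 in MDI. The OA libraries stood apart from both other groups, which overlapped. Cyp26b1 rose in OA against MDI by a log2 fold change of 1.47 (SE 0.12, limma adjusted p = 2.79e-06) and fell in OA_T0 against OA by 1.38 (SE 0.12, adjusted p = 2.86e-06). Aldh1a1, which oxidises retinal to retinoic acid, measured 367, 368 and 242 in OA_T0, 469.8, 529 and 580.04 in OA, and 198, 259 and 237 in MDI. Its log2 fold change was 1.19 in OA against MDI (adjusted p = 2.28e-04) and -0.71 in OA_T0 against OA (adjusted p = 0.00560). Dhrs3, a retinal reductase, measured 50.7, 38.2 and 61.6 in OA_T0, 92.8, 93.9 and 98.3 in OA, and 45.5, 37.0 and 59.7 in MDI. Its OA libraries were above all others, and Dhrs3 rose in OA against MDI by a log2 fold change of 1.02 (adjusted p = 0.0133), a call lost without MDI_1 (0.0523) or MDI_2 (0.0857).

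Dhrs3 was also among the 5 genes that fell in OA_T0 against OA, with a log2 fold change of -0.93 (limma adjusted p = 0.0113). It is named for this comparison beyond the rule, after its values were seen.

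On the oxysterol side, Cyp7b1, an oxysterol hydroxylase, measured 464, 507 and 449.9 normalised counts in OA_T0, 850.1, 819.8 and 742 in OA, and 679.6, 587 and 639 in MDI. The OA libraries were the highest and the OA_T0 libraries the lowest, with no overlap. Cyp7b1 had a log2 fold change of 0.34 in OA against MDI (limma adjusted p = 0.0254), -0.76 in OA_T0 against OA (adjusted p = 2.58e-05) and -0.42 in OA_T0 against MDI (0.0141). The first call was lost without MDI_2 (0.147), OA_1 (0.117) or OA_2 (0.0779) or with libraries scaled to equal totals (0.0549), and the third without MDI_1 (0.0934) or OA_T0_1 (0.0979). Without MDI_2 the list had 2 genes higher in OA against MDI, and without OA_T0_3 it had 2 higher in OA_T0 against MDI.

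**Figure D5:**
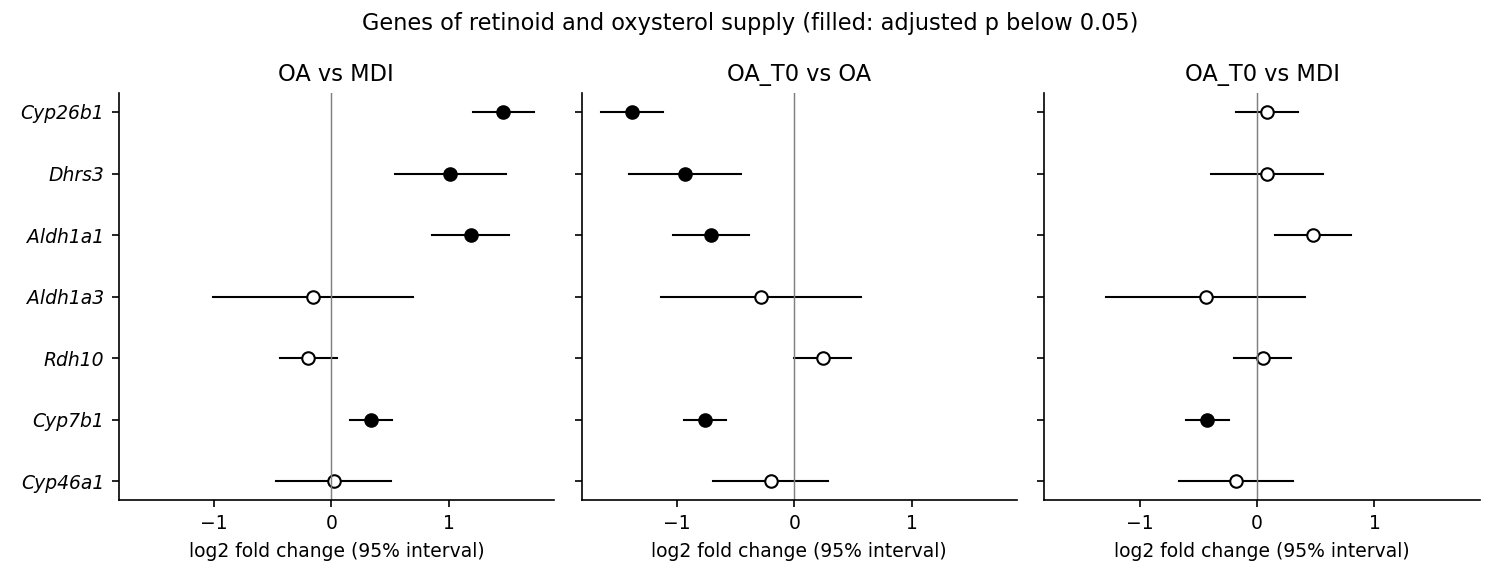
Log2 fold changes (points) with 95% intervals (bars) of 7 genes of retinoid and oxysterol supply in the 3 comparisons, from limma; filled points passed at an adjusted p below 0.05. Cyp26b1, Dhrs3, Aldh1a1 and Cyp7b1 are filled on the right in OA vs MDI and on the left in OA_T0 vs OA, which share the OA libraries.

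The receptor levels can be set beside the transcripts of genes listed as LXR targets. Receptor activity itself was not measured. Of 15 LXR targets, 11 were tested. Against OA, 4 rose and 0 fell in OA_T0, in OA_T0 against MDI 6 rose and 0 fell, and in OA against MDI 3 rose and 1 fell. Their median log2 fold change was 0.37, 0.87 and 0.02 in the same order. Abca1, the sterol exporter whose element is printed above, measured 7137, 7783 and 7104 normalised counts in OA_T0, 1186, 1119 and 999.5 in OA, and 1182, 1029 and 973 in MDI. Its log2 fold change in OA_T0 against OA was 2.74 (SE 0.08, limma adjusted p = 5.56e-12), while Nr1h3, Nr1h2, Rxra and Rxrb had log2 fold changes of -0.30, 0.02, -0.20 and 0.03 in that comparison and none passed. Mylip, Scd1 and Scd2 also rose, and the other 7 tested targets did not pass. In OA against MDI, Abca1 had a log2 fold change of 0.05 (adjusted p = 0.761), while Lpcat3, Fasn and Tmem86a rose and Scd2 fell. Single libraries moved those counts: the number higher was 1 without MDI_2, where the calls of Fasn (0.0501) and Tmem86a (0.0544) were lost, the Tmem86a call was also lost without MDI_1 (0.124), OA_1 (0.0681) or OA_3 (0.0923), and the number lower was 0 without MDI_2, MDI_3, OA_1, OA_2, OA_3 or OA_T0_1. In OA_T0 against OA, 1 target was called lower without OA_T0_2.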

How the data were processed

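The deposited table gave a signal per gene and library: counts that were not all whole, which the authors had divided by a factor for each library, as its values show. The submitters' processing notes name CASAVA 1.8.2, TopHat, HTSeq and DESeq2, with the build mm9 and no order. Library preparation kept strand per the labels; the counting strand is not given in the sources used here. Reads shared with overlapping genes or paralogs cannot be separated. Members' exons overlapped other genes by at most 154 bases (Ncoa3 with Sulf2).

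The commonest value above 0 in each library was taken as 1 fragment. Whole multiples made up 63.1% to 68.9% of values of 5 to 50 fragments (within 0.05), too few for count tests. The 15002 genes with a mean of at least 10 were tested as log2(value + 1) in limma 3.58.1 (R 4.3.3), with an intensity trend and a spread shared by 3 groups of 3. P-values were two-sided, Benjamini-Hochberg adjusted over all tested genes, with a threshold of 0.05. The procedure was tested on simulated data. Exon lengths came from GENCODE M21 (GRCm38) and match the authors' annotation only approximately.

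Named were the 8 members, up to 4 passing genes per list and comparison by adjusted p, the 3 nearest profiles of Nr1h3, Nr1h2 and Rxra, and Pparg and Abca1; some list genes are counted but not reported here by name. Members and lists were chosen with earlier results of these data known. Alternatives were other pseudocounts, filters, scalings and variance models, a replicate block, only the groups compared, and each library left out; leaving out OA replicate 1 and OA_T0 replicate 3 together was added after the data were seen.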

Additional observations from a re-analysis of the deposited data

How the results depend on the processing

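Across the 19 alternatives, the members kept their sign and call in 424 values, changed sign in 22, lost the call in 8 and gained it in 2. The calls lost were those of Rxra in OA against MDI and those gained were of Rxra in OA_T0 against OA; apart from Nr1h3 in OA_T0 against OA, at -0.30 with all libraries, the values that changed sign were within 0.05 of 0 with all libraries. Nr1h3 rests on 21 to 78 fragments a library, so small differences in it were not detectable. Where no cause is stated, the cause was not tested.

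With no filter on low values, all genes had 233 higher and 234 lower in OA against MDI, 620 lower in OA_T0 against OA, and 72 higher and 38 lower in OA_T0 against MDI, with more genes in the adjustment, and 0 members were higher in OA against MDI. It also ended the calls of Nr4a1 (adjusted p = 0.120), Dhrs3 (0.0630), Cyp7b1 (0.0672), Fasn (0.0657), Tmem86a (0.0746) and Scd2 (0.146) in OA against MDI, of Prmt1 (0.0916) and Kat2a (0.0684) in OA_T0 against OA, and of Cyp7b1 (0.0664) and Nrip1 (0.0556) in OA_T0 against MDI. Robust variance gave 132 genes lower in OA_T0 against MDI and ended the Nr4a1 call in OA against MDI. Kat2a was also lost with only the groups compared (0.0743). Equal totals gave 1 member lower in OA_T0 against OA, log2 fold changes of -0.0106 for Nr1h2 and -0.0053 for Rxrb in OA against MDI, and -0.0038 for Nr1h2 in OA_T0 against MDI, and ended the calls of Cyp7b1 in OA against MDI (0.0549) and Kat2a in OA_T0 against OA (0.0891). Quantile normalisation gave -0.0059 for Nr1h2 in OA_T0 against OA. Without OA_1 and OA_T0_3 together, 524 genes were higher and 400 lower in OA_T0 against OA, with fewer libraries, and the log2 fold change was 0.0282 for Nr1h3 and -0.0320 for Rxrb; the calls of Prmt1 (0.192) and Kat2a (0.199) there, and of Cyp7b1 (0.0978) and Scd2 (0.0570) in OA against MDI, were lost.

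Leaving out 1 library at a time, all genes had 214 to 660 higher and 155 to 642 lower in OA against MDI, 580 to 1443 higher and 474 to 1239 lower in OA_T0 against OA, and 66 to 283 higher and 45 to 247 lower in OA_T0 against MDI. Members called were 0 to 1 higher in OA against MDI and 0 to 1 lower in OA_T0 against OA. Log2 fold changes in OA against MDI ran from -0.0595 to 0.0564 for Nr1h2, -0.0708 to 0.0743 for Rxrb, -0.0171 to 0.0077 for Ncor1 and -0.0610 to 0.0621 for Ncoa3. In OA_T0 against OA they ran from -0.0256 to 0.0971 for Nr1h2, -0.487 to 0.0070 for Nr1h3, -0.0323 to 0.113 for Rxrb and -0.0336 to 0.112 for Ncoa1. In OA_T0 against MDI they ran from -0.0157 to 0.103 for Nr1h2 and from -0.0052 to 0.0665 for Rxrb.

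Same-numbered libraries did not deviate together: the correlation of their deviations from the group means was 0.0605, 0.0097 and 0.259 between OA and MDI, -0.0753, 0.0269 and -0.125 between OA_T0 and OA, and -0.128, -0.0423 and -0.256 between OA_T0 and MDI, and not every library correlated best with its own number. With the number as a replicate block, 433 genes were higher and 417 lower in OA against MDI, 1095 and 916 in OA_T0 against OA, and 156 and 183 in OA_T0 against MDI; 0 members were called, with Rxra in OA against MDI at adjusted p = 0.0686, and the Kat2a call in OA_T0 against OA was lost (0.0653).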
